A study of Mus musculus with 11 samples.

Results

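Cholesterol synthesis genes were examined as a group of 7, namely Hmgcs1, Idi1, Fdft1, Sqle, Cyp51, Srebf2 and Insig1, out of 53700 gene identifiers counted in mouse cerebral cortex. The 7 genes were matched by symbol to their Ensembl identifiers, and each of the 7 was found and passed the filter on low counts that left 17626 genes to test. RNA from the cortex of 11 female 5xFAD mice aged 8 months was read by QuantSeq, a method that sequences the end of each mRNA next to its poly(A) tail, and the study asked how loss of Abi3 alters the cortex of this amyloid model. Abi3 encodes a regulator of the actin cytoskeleton that in brain is found mainly in microglia. The 6 Abi3 WT mice carried both copies of Abi3 and the 5 Abi3 KO mice carried a null deletion of both copies in every cell, so that an effect cannot be assigned to one cell type. All 11 mice carried the 5xFAD transgenes, which express human genes with familial Alzheimer's disease mutations in neurons under the Thy1 promoter. The labels give the strain as C57BL/6. Per the study's methods, the parents were 5xFAD mice of a B6SJL background and Abi3-null mice of a C57BL/6N background, and all mice used were heterozygous for a Trem2 allele of SJL origin.

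Cholesterol is made from acetyl-CoA. Hmgcs1 acts on the way to mevalonate, further enzymes including Idi1 turn mevalonate into farnesyl diphosphate, Fdft1 joins farnesyl diphosphate into squalene, Sqle oxidises squalene, and Cyp51 begins the trimming of lanosterol to cholesterol. The transcription factor SREBP2, product of Srebf2, switches these genes on when sterol levels in the endoplasmic reticulum are low, and INSIG1, itself made from a SREBP2 target gene, holds SREBP2 back when sterols are plentiful. Brain makes its own cholesterol because lipoproteins of the blood do not cross the blood-brain barrier, with oligodendrocytes using it for myelin and astrocytes passing it to neurons on ApoE particles.

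Of the 7 genes, Hmgcs1 was higher in Abi3 KO cortex by the threshold used, an adjusted p at or below 0.05 in DESeq2, and the remaining 6 were not past it. The call of Hmgcs1 lay near the threshold and held in 3 of 11 alternatives in tool, scaling, filter or design. Of these, the replicate block also dropped Abi3 WT replicate 6, which has no Abi3 KO animal of the same number. The log2 fold change of Abi3 KO against Abi3 WT was above 0 for 6 of the 7 genes and below 0 for Srebf2. The 6 include Idi1, with mean normalized counts of 0.99 in Abi3 WT and 2.42 in Abi3 KO. It passed the filter at a mean of 1.5 only through Abi3 KO, so its direction carries no weight here. An adjusted p, without which a gene cannot pass, was given to 6 of the 7 genes and to 6487 of the 17626 tested. The 1 gene of 7 past the threshold compares with 0.539% of the 17626 genes tested, of which 0.34% were higher and 0.199% lower in Abi3 KO (60 and 35 genes). This split depended on the scaling, with 14 higher and 39 lower when total reads in genes set the size factors. The median log2 fold change was 0.31 over the 7 genes and -0.00 over all genes tested, of which 49.5% were above 0. Among genes given an adjusted p, which leaves out Idi1, it was 0.27 for the 6 and 0.03 for all. An unadjusted p under 0.05 was reached by 2 of the 7, Hmgcs1 and Fdft1, both higher, against 4.14% of all genes that were higher at that level. None of the 7 had groups without overlap, against 0.539% of all genes with every Abi3 KO animal above every Abi3 WT animal and 0.499% with every one below. The 7 genes share a pathway and the same 11 libraries, so their directions are not independent of each other.

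The libraries held 3202310 to 5501958 reads in genes, and 3 reads, the smallest amount taken as detected, were worth 0.545 to 0.937 CPM, reads scaled to the library total (counting error only). Raw Abi3 counts were 10 to 38 in the Abi3 WT animals and 0 to 2 in the Abi3 KO animals, 4 of which had none. Reads that fell outside annotated genes numbered 65.9 ± 3.67 per 100 reads in genes (SD, n = 6) in Abi3 WT and 54.0 ± 4.99 (SD, n = 5) in Abi3 KO libraries, a gap larger than the variation within the groups (two-sided exact permutation p = 0.00866, adjusted over 2 library measures p = 0.0173). The number of reads in genes did not differ beyond that variation (two-sided exact permutation p = 0.130, adjusted p = 0.130). The labels name no batch, and nothing in them ties the animals to litters.

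**Figure D1:**
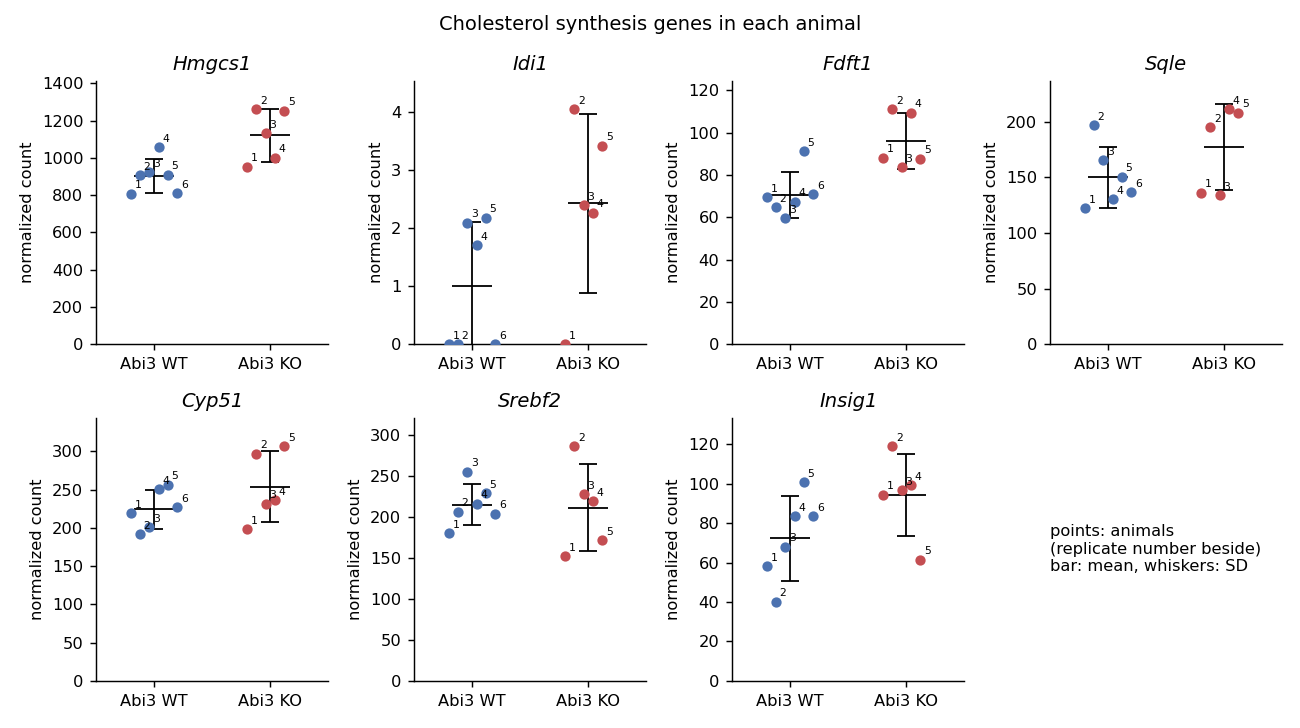
Normalized counts of the 7 genes (y axis, from 0, with its own range in each panel) in the 6 Abi3 WT (blue) and 5 Abi3 KO (red) animals, with the replicate number beside each point, the group mean as a bar and the SD as whiskers. For Hmgcs1, 3 of the 5 Abi3 KO animals lie above the highest Abi3 WT animal, Fdft1 overlaps through Abi3 WT replicate 5, and Idi1 lies between 0 and 4.04.

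Hmgcs1 (ENSMUSG00000093930, chromosome 13, 120151915 to 120170470, + strand, GRCm39) encodes the cytosolic HMG-CoA synthase, which makes HMG-CoA, the precursor of mevalonate. Its normalized counts, scaled by DESeq2 size factors, were 808 at the lowest, 907 at the median and 1057 at the highest in the 6 Abi3 WT animals. In the 5 Abi3 KO animals they were 953, 1261, 1133, 999.5 and 1253 for replicates 1 to 5. Replicates 2, 3 and 5 of the Abi3 KO group were above the highest Abi3 WT animal, replicate 4 of Abi3 WT, and replicates 1 and 4 lay within the Abi3 WT range. The group means were 902 ± 91.2 (SD, n = 6) and 1119.8 ± 141 (SD, n = 5), a log2 fold change of 0.31 (SE 0.0904, 95% interval 0.13 to 0.49). The unadjusted p was 0.000595 and the adjusted p was 0.0477 (DESeq2).

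The call of Hmgcs1 depended on how the counts were processed. Over the 11 alternatives in tool, scaling, filter or design the adjusted p ran from 0.0137 to 1.00. The call was not made by edgeR (adjusted p = 0.230) or by limma (adjusted p = 0.170). Leaving out 1 animal at a time gave log2 fold changes of 0.26 to 0.36 and kept the call in 4 of 11 fits. The call was lost without Abi3 WT replicate 1 (DESeq2 adjusted p = 0.0968), replicate 3 (0.0568), replicate 5 (0.118) or replicate 6 (0.161), and without Abi3 KO replicate 2 (0.212), replicate 3 (0.0838) or replicate 5 (0.133). The direction was the same, higher in Abi3 KO, in all 22 alternative fits.

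**Figure D2:**
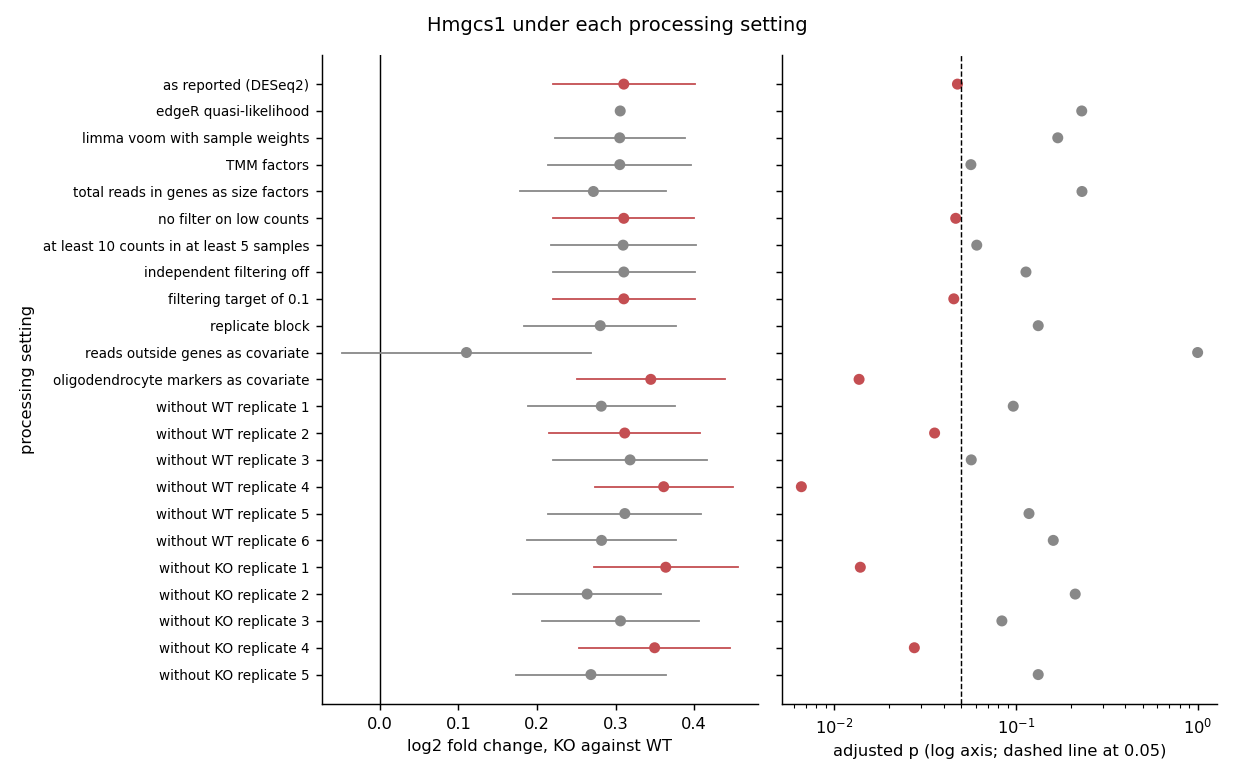
Log2 fold change of Hmgcs1 (left, with 1 SE where the tool gives one) and its adjusted p (right, log axis, dashed line at 0.05) as reported and under each alternative, named at the left. Red points are past the threshold. All values lie above 0, from 0.11 with reads outside genes as a covariate to 0.36 without Abi3 KO replicate 1, and the adjusted p runs from 0.00661 to 1.00.

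The share of reads outside genes, which differed between the groups, was set beside Hmgcs1 in every animal. Abi3 KO replicates 1 to 5 had 52.8, 49.8, 53.7, 62.5 and 51.1 reads outside genes per 100 reads in genes. Their normalized Hmgcs1 counts were 953, 1261, 1133, 999.5 and 1253. Abi3 WT replicates 1 to 6 had 68.5, 65.3, 59.3, 68.5, 64.7 and 68.8 such reads. The Hmgcs1 counts of these 6 animals were 808, 905, 924, 1057, 908 and 811. No relation between the share and Hmgcs1 within a genotype was tested. With this share as a covariate the log2 fold change of Hmgcs1 was 0.11 (SE 0.159, DESeq2 adjusted p = 1.00), and because the share itself differed between the genotypes their parts cannot be told apart.

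**Figure D3:**
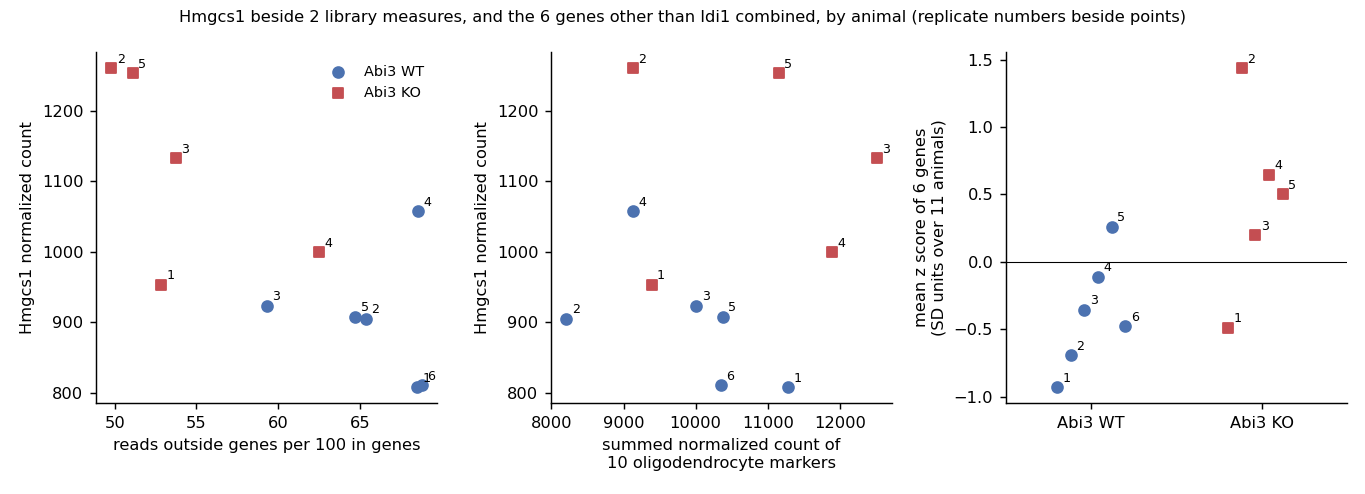
Left and middle, normalized Hmgcs1 counts (y axis) of the 11 animals against reads outside genes per 100 reads in genes and against the summed normalized count of 10 oligodendrocyte markers (x axes). Right, the mean over 6 genes (all but Idi1) of z scores of log2(normalized count + 1), in SD units over the 11 animals, by genotype. Abi3 WT animals are blue circles and Abi3 KO animals red squares, numbered by replicate. Abi3 KO replicate 2 has the highest mean z score, 1.44, and Abi3 WT replicate 1 the lowest, -0.93.

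Promoters of a synthase, of the brake on SREBP2 and of SREBP2 itself are shown because the genes are read as one regulated group. Each run holds 250 bases before and 50 bases after the start site from RefSeq on GRCm38.p6, a different build from the counts, in the direction of the gene. Capitals mark matches, on either strand, of TCACNCCAC, a form of the sterol regulatory element that SREBP2 binds, and of CCAAT, the box bound by NF-Y, which read ATTGG on the other strand.

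Hmgcs1, chr13:119690101-119690400, + strand: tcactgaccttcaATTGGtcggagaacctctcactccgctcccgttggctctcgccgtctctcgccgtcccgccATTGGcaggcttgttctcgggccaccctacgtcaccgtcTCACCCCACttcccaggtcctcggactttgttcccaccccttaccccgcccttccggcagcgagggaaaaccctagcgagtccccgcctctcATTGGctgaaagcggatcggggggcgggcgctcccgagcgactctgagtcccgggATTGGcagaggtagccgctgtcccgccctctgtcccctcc
Insig1, chr5:28071162-28071461, + strand: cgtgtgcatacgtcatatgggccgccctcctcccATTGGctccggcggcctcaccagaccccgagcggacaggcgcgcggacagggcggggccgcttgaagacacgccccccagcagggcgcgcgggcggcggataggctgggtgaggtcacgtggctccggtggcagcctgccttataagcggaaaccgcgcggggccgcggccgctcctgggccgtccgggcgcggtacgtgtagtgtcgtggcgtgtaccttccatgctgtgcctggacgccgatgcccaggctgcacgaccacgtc
Srebf2, chr15:82147019-82147318, + strand: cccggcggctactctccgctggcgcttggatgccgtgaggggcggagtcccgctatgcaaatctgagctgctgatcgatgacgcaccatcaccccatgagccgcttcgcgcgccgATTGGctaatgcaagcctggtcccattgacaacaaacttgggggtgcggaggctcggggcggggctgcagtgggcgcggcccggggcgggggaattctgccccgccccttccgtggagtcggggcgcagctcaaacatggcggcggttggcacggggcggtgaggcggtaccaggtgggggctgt

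The Hmgcs1 promoter held 1 match of TCACNCCAC, at 137 to 129 bases before the start site, and 4 of CCAAT, none of them overlapping. Insig1 and Srebf2 each held 1 CCAAT and no TCACNCCAC in this window. The table gave promoters for 5 of the 7 genes and not for Sqle and Fdft1. CCAAT was in 5 of these 5 and in 37.4% of all 32851 promoters of the table, and GGGCGG, the GC box bound by Sp1, was in 5 of 5 and in 35.7%. TCACNCCAC was in 1 of 5, that of Hmgcs1, and in 1.24% of all. Over the 23 cholesterol enzymes and regulators of the 7 genes and the enzyme lists, 18 had a promoter in the table, 17 held CCAAT and 1 held TCACNCCAC. Such matches describe letters and not bound sites, and the differences between the groups in counts were not tested against them.

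The enzymes downstream of Hmgcs1 were taken in pathway order. Idi1 (ENSMUSG00000058258, chromosome 13, 8935537 to 8942487, + strand) encodes isopentenyl diphosphate isomerase, which provides the starter unit for chain growth. It had 18 reads in all 11 libraries together, and no library had more than 4. Its raw counts were 0 to 3 in Abi3 WT and 0, 4, 2, 2 and 3 in Abi3 KO replicates 1 to 5. These counts lie at the limit of detection, and the fitted log2 fold change of 1.26 had a 95% interval of -1.27 to 3.79, so a difference was not detectable with them. They cover only reads within the annotated gene, and whether Idi1 transcripts ended elsewhere was not tested, so the low counts need not mean a low Idi1 level. DESeq2 gave Idi1 no adjusted p because its mean count was under the filtering threshold of 70.4.

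Fdft1 (ENSMUSG00000021273, chromosome 14, 63382189 to 63417027, - strand) encodes squalene synthase, the first enzyme committed to sterols. In Abi3 WT its normalized counts were 59.6 at the lowest, 68.5 at the median and 91.3 at the highest. Abi3 KO replicates 1 to 5 had 88.1, 111, 83.6, 110 and 87.6 normalized counts. All 5 lay above 5 of the 6 Abi3 WT animals, and the overlap came from Abi3 WT replicate 5, the animal at 91.3. The groups differed by 0.44 on the log2 scale (SE 0.179, 95% interval 0.09 to 0.79), which did not pass (unadjusted p = 0.0140, DESeq2 adjusted p = 0.245). Without Abi3 WT replicate 5 the adjusted p was 0.174, still short of the threshold.

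Sqle (ENSMUSG00000022351, chromosome 15, 59186869 to 59203043, + strand) encodes squalene epoxidase, a rate-limiting step after squalene. Its normalized counts in Abi3 WT were 122 at the lowest, 144 at the median and 197 at the highest. They were 136, 195, 134, 211 and 208 in Abi3 KO replicates 1 to 5. The Abi3 KO animals fell into replicates 2, 4 and 5 near or above the highest Abi3 WT animal and replicates 1 and 3 below the Abi3 WT median. The log2 fold change of 0.23 (SE 0.166, 95% interval -0.09 to 0.56) did not pass (DESeq2 adjusted p = 0.608).

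Cyp51 (ENSMUSG00000001467, chromosome 5, 4123416 to 4154751, - strand) encodes lanosterol 14-alpha-demethylase. Normalized counts in Abi3 WT were 192 at the lowest, 223 at the median and 256 at the highest, and Abi3 KO replicates 1 to 5 had 198, 297, 232, 236 and 307. Replicates 2 and 5 of Abi3 KO, also the highest for Hmgcs1, were above every Abi3 WT animal, and the other three lay within the Abi3 WT range. Cyp51 did not pass, with a log2 fold change of 0.18 (SE 0.133, 95% interval -0.08 to 0.44, DESeq2 adjusted p = 0.626). That value was 0.115 without Abi3 KO replicate 2 and 0.103 without Abi3 KO replicate 5.

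Both regulators were read next. Srebf2 (ENSMUSG00000022463, chromosome 15, 82031382 to 82093201, + strand) had normalized counts of 180 at the lowest, 212 at the median and 255 at the highest in Abi3 WT, and of 152, 287, 228, 219 and 172 in Abi3 KO replicates 1 to 5. The Abi3 KO animals spread over a wider range than the Abi3 WT animals, with replicates 1 and 5 below and replicate 2 above all 6. Srebf2 did not pass, with a log2 fold change of -0.03 (SE 0.150, 95% interval -0.32 to 0.27, DESeq2 adjusted p = 0.971), and its sign turned in 3 fits that left out an animal. The mRNA level does not show how much SREBP2 protein was processed to its active form.

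Insig1 (ENSMUSG00000045294, chromosome 5, 28276315 to 28283668, + strand) had normalized counts of 40.1 at the lowest, 75.7 at the median and 101 at the highest in Abi3 WT. Abi3 KO replicates 1 to 5 had 94.4, 119, 96.7, 99.4 and 61.5. Only replicate 2 of Abi3 KO was above the Abi3 WT range, and replicate 5, which was among the highest for Hmgcs1, Sqle and Cyp51, was the lowest Abi3 KO animal for Insig1. The log2 fold change of 0.38 (SE 0.230, 95% interval -0.07 to 0.83) did not pass (DESeq2 adjusted p = 0.517), and it was 0.25 without Abi3 WT replicate 2.

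Across animals, Abi3 KO replicate 2 ranked among the top 3 of the 11 animals in 5 of the 6 genes other than Idi1, and Abi3 WT replicate 1 among the bottom 3 in 4 of 6. The mean z score of the 6 genes was -0.93 to 0.26 in Abi3 WT and -0.49 to 1.44 in Abi3 KO. Abi3 WT replicate 5, at 0.26, and Abi3 KO replicate 1, at -0.49, placed the groups in overlap. In Abi3 WT replicate 5, 4 of the 6 genes ranked in the top 3.

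Whether the 7 genes varied together within a genotype was tested over the 11 animals with log2(normalized count + 1) centred on each genotype's mean, by permutation within genotypes (100000 resamples, two-sided). Of 21 pairs, 1 passed after adjustment over the pairs, Hmgcs1 with Idi1 (Pearson r = 0.76, permutation p = 0.00221, adjusted p = 0.0464; Spearman rho = 0.73, permutation p = 0.00980, adjusted p = 0.103). That pair rests on Idi1 counts of at most 4 reads, and r was 0.66 without the 2 animals farthest from the median of Hmgcs1. It did not pass with a pseudocount of 10. Of the 15 pairs without Idi1, 13 had r above 0, with a median of 0.31 and a range of -0.38 to 0.68, and none passed. The median r of these 15 pairs rested on single animals, falling to 0.14 without Abi3 KO replicate 1 and to 0.17 without Abi3 KO replicate 2. The highest of them was Hmgcs1 with Cyp51, enzymes of an early and a late step (r = 0.68, permutation p = 0.0474, adjusted p = 0.249; rho = 0.58, permutation p = 0.109, adjusted p = 0.443), with r = 0.52 without the 2 farthest animals. The lowest was Sqle with Insig1 (r = -0.38, permutation p = 0.264, adjusted p = 0.571; rho = -0.19, permutation p = 0.580, adjusted p = 0.745).

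The other genes of the pathway were taken from 6 lists with 68 genes in all, each of which was tested. DESeq2 gave an adjusted p to 2 of 6 further enzymes before squalene, 6 of 10 after it and 6 of 11 sensing genes. It gave one to 6 of 9 isoprenoid genes, 13 of 18 transport and export genes and 11 of 14 fatty acid genes. The rest could not pass in DESeq2. None of the 68 passed the threshold in DESeq2, 5 had an unadjusted p under 0.05 and were higher in Abi3 KO, and 2 were lower, against 4.14% and 4.44% of all genes. None passed in edgeR or limma. The median log2 fold change of the 68 was -0.01.

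**Figure D4:**
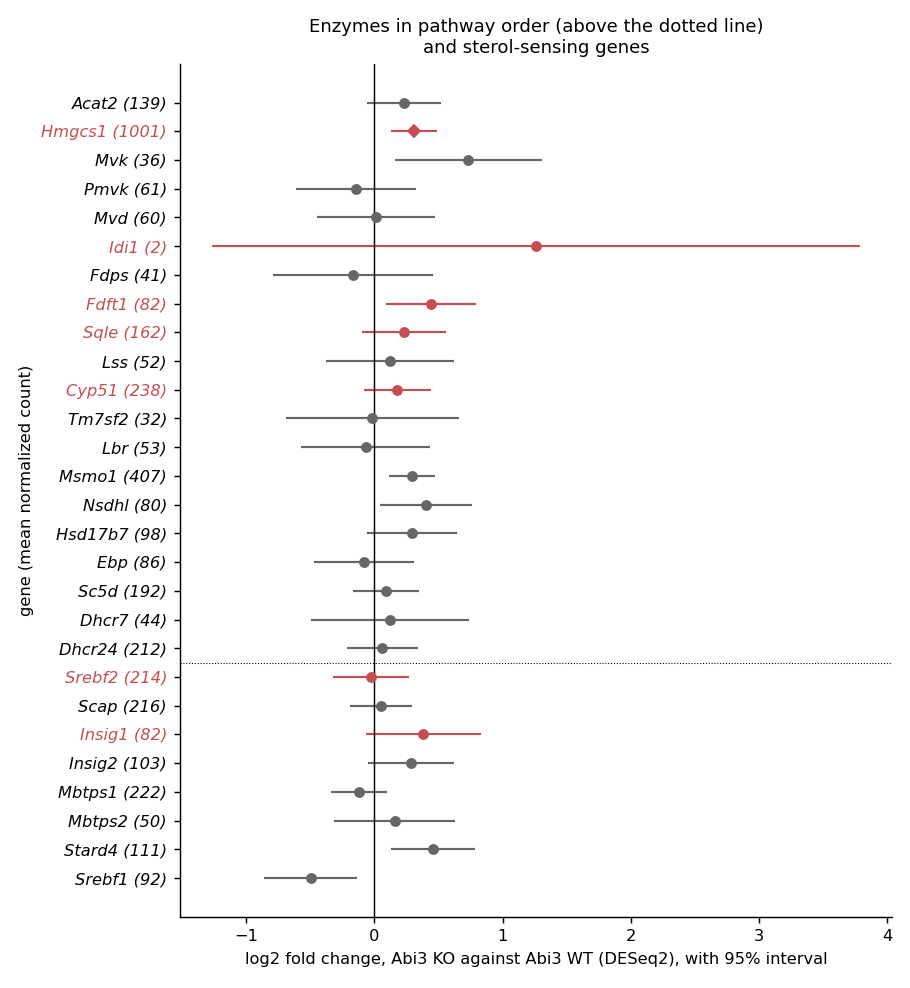
Log2 fold change of Abi3 KO against Abi3 WT (x axis, DESeq2, with 95% intervals) for 20 cholesterol enzymes in pathway order above the dotted line and for 8 regulators and SREBP targets below it, with the mean normalized count in brackets. The 7 genes of the group are red, and the diamond is Hmgcs1, the gene past the threshold. Of the 20 enzymes plotted, 15 lie above 0, and the interval of Idi1 runs from -1.27 to 3.79.

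Over the 21 enzymes from acetyl-CoA to cholesterol, those of the 7 included, 16 had a log2 fold change above 0 and 5 below, with a median of 0.12, and 1 passed, Hmgcs1. The 16 include Idi1, kept by the filter on low counts only through its Abi3 KO animals. Among the 6 other enzymes before squalene the median was 0.02, with 4 above 0. Mvk, mevalonate kinase, was the highest of these 6 at 0.73 (SE 0.293). It was among the 5 genes with an unadjusted p under 0.05, but its mean of 36.5 normalized counts was too low for an adjusted p. Fdps, farnesyl diphosphate synthase, was the lowest at -0.17 (SE 0.317).

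Among the 10 other enzymes after squalene, 7 were above 0 and the median was 0.11. Msmo1, the methylsterol monooxygenase that acts after Cyp51, had 331 normalized counts at the lowest, 379 at the median and 398 at the highest in Abi3 WT. In Abi3 KO replicates 1 to 5 it had 476, 464, 409, 488 and 423. All 5 Abi3 KO animals were above all 6 Abi3 WT animals, which was so for 0.539% of all genes tested, but the log2 fold change of 0.29 (SE 0.0905) did not pass (DESeq2 adjusted p = 0.0748). Msmo1 was singled out after its values were seen. Nsdhl, which acts in the same demethylation steps, was the highest of the 10 at 0.40 (SE 0.183, DESeq2 adjusted p = 0.331), and Ebp, an isomerase, the lowest at -0.08 (SE 0.197, DESeq2 adjusted p = 0.925). The summed normalized counts of the 10 enzymes were 1072 to 1281 in Abi3 WT and 1297 to 1372 in Abi3 KO, with Msmo1 the largest part of the sum. Whether the groups stay apart without Msmo1 was not tested. The sums of the 6 other enzymes before squalene overlapped, at 679 to 922 in Abi3 WT and 665 to 940 in Abi3 KO. Those of the 7 genes also overlapped, at 1458 to 1807 and 1622 to 2274.

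Among the 11 other sensing genes and SREBP2 targets, 7 were above 0, with a median of 0.12. Stard4, a sterol carrier, was the highest with a mean count of at least 10, at 0.45 (SE 0.167, unadjusted p = 0.00643, DESeq2 adjusted p = 0.165), with 4 of 5 Abi3 KO animals above the Abi3 WT range. Srebf1, whose product drives fatty acid genes, was the lowest at -0.50 (SE 0.186, unadjusted p = 0.00763, DESeq2 adjusted p = 0.181), with Abi3 WT animals at 78.4 to 143 and Abi3 KO animals at 93.3, 69.7, 66.8, 68.9 and 77.4 normalized counts. Of the Abi3 KO animals, 4 lay below the Abi3 WT range, and replicate 1 lay within it. The 14 fatty acid synthesis genes, targets of that factor, had a median of -0.10, with 11 below 0. In this list Thrsp was the highest at 0.40 (SE 0.282) and Elovl5, a fatty acid elongase, the lowest with such a mean count at -0.28 (SE 0.165, DESeq2 adjusted p = 0.503). Fads1, a desaturase, was the other gene besides Srebf1 with an unadjusted p under 0.05 and a lower level (-0.22, SE 0.101, DESeq2 adjusted p = 0.353), and was singled out for that.

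The 9 genes of the isoprenoid branches, which use farnesyl diphosphate for dolichol, ubiquinone and prenylated proteins, had a median of -0.06 and 3 above 0. Pdss2 was the highest at 0.14 (SE 0.267) and Pggt1b, a subunit of geranylgeranyl transferase, the lowest at -0.37 (SE 0.189, DESeq2 adjusted p = 0.423). The 18 genes of cholesterol transport, storage and export had a median of -0.03, with 7 above 0. Among those with a mean count of at least 10, Npc2, which carries cholesterol out of lysosomes, was the highest at 0.28 (SE 0.102, unadjusted p = 0.00669, DESeq2 adjusted p = 0.169), and Lcat, which esterifies cholesterol on lipoproteins, the lowest at -0.42 (SE 0.315).

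Markers of the cells that make cholesterol were set beside these values. Oligodendrocyte markers were above 0 in 10 of 10 genes, with a median log2 fold change of 0.25, and 1 of the 10 passed: Cldn11, a tight junction protein of myelin (0.53, SE 0.130, DESeq2 adjusted p = 0.0106). Their summed normalized counts were 8208 to 11287 in Abi3 WT and 9129 to 12514 in Abi3 KO. In a fit added once the data had been seen, with that sum as a covariate, the log2 fold change of Hmgcs1 was 0.34 (DESeq2 adjusted p = 0.0137). The sums of Abi3 KO replicates 1 to 5 were 9388, 9129, 12514, 11890 and 11153.5, next to their Hmgcs1 counts given above. Of 10 astrocyte markers, 0 passed, 8 were below 0 and the median was -0.10. Of 10 microglial markers, 0 passed, 9 were above 0 and the median was 0.20. Of 10 neuronal markers, 0 passed, 7 were above 0 and the median was 0.11, with sums of 22402 to 25663 in Abi3 WT and 24428 to 27041 in Abi3 KO. The part of the astrocyte, microglial and neuronal values in the result for Hmgcs1 was not tested, that of oligodendrocyte markers was examined by this 1 covariate alone, and in whole cortex fewer cells of a type and less RNA per cell cannot be told apart.

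Tissue from beside the cortex varied between animals. Choroid plexus markers, 0 of 7 past the threshold, summed to 60.1 to 3532 normalized counts in Abi3 WT and 86.9 to 2335 in Abi3 KO. Striatal markers, 0 of 8 past, were below 0 in 8 of 8 with a median of -0.28, and summed to 2356 to 3532 in Abi3 WT and 1931 to 3163 in Abi3 KO. Of 6 endothelial markers 0 passed and 4 were below 0. Their part in the values of the cholesterol genes was not tested.

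The genes outside the lists whose profile over the 11 animals, centred by genotype, ranked closest to the mean z score of the 6 genes were named among 7671 genes with a mean of at least 50 normalized counts. They were Nrg3 (r = 0.90), Car2 (r = 0.89), Tpst2 (r = 0.89), Ints4 (r = 0.88) and Gm57857 (r = 0.87). These are the top of a ranking of many genes over few animals, given as a description without a test. Nrg3 encodes a neuregulin and Car2 a carbonic anhydrase. Their log2 fold changes were 0.00, 0.10, 0.26, 0.08 and -0.04, none of them past the threshold. Within the pathway lists the highest likeness was that of Nus1, a subunit of the enzyme that builds the dolichol chain (r = 0.75), and of Sc5d, a late sterol desaturase (r = 0.73).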

How the data were processed

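Per the labels and the study's methods, the authors trimmed single-end QuantSeq reads with bbduk, aligned them to GRCm39 with STAR (version 2.7.3a) and counted reads per Ensembl gene by strand with htseq-count (HTSeq version 0.9.1). The deposited values are raw counts, 1 table per animal. No removal of PCR copies was stated. Names and positions came from a later GENCODE annotation of GRCm39, which matched 52610 of 53700 identifiers.

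DESeq2 (version 1.42.0, in R version 4.3.3) compared the genotypes, as in the study's methods. Genes had at least 10 counts in total and a mean normalized count of at least 1.5. Benjamini-Hochberg adjustment ran over the 6487 genes kept by independent filtering aimed at 0.05, a target that the study's methods do not state. Under this fit 95 genes passed. Alternatives used edgeR (version 4.0.16), limma (version 3.58.1), other scalings, filters, covariates, the replicate number as a block, and the removal of each animal. Scripts were tested on simulated data. P-values of the genotype contrasts weigh the difference between the groups against the variation between these animals.

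The last 300 bases of each gene's main transcript, where QuantSeq reads fall, had no match of at least 95% identity over 100 bases in transcripts of other genes (BLAST version 2.17.0). Genes named besides the 7 were those past the threshold in a list, the highest and lowest of each pathway list with a mean count of at least 10, Abi3 and the 5 most alike in profile. Exceptions are stated, and some genes that the rule includes are not reported here. The genes, lists and tests were chosen with earlier results of these data known. Genes given no adjusted p were counted as not past the threshold.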

Additional observations from a re-analysis of the deposited data

Results flagged for a closer look

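In the Abi3 WT group, replicate 5 stood apart for Fdft1, squalene synthase. It had 91.3 normalized counts, and the nearest of the other 5 animals had 70.9, a gap of 0.644 of the group's range, which is over Dixon's critical value for 6 samples. This was 1 of 18 sets of values examined, and 0.9 such cases are expected by chance. The same animal was the highest of its group for Insig1 and Cyp51. Without it the log2 fold change of Fdft1 was 0.53 in place of 0.44.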

How the results depend on the processing

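The direction of Hmgcs1, Sqle, Insig1, Fdft1 and Cyp51 was the same in all 22 alternative fits, and that of Idi1 in the 19 that gave it a value. With reads outside genes as a covariate the log2 fold changes of Hmgcs1, Idi1, Sqle, Cyp51 and Srebf2 fell to 0.11, 0.16, 0.15, 0.096 and -0.23. Those of Insig1 and Fdft1 rose, from 0.38 to 0.47 and from 0.44 to 0.58. Idi1 had no log2 fold change with at least 10 counts in at least 5 animals or without Abi3 KO replicate 2 or 5. These 2 animals had its highest counts, so its direction was read only in fits whose filter it passed. The number of the 7 genes past the threshold, 1 as reported, was 0 with edgeR, limma, TMM factors, total reads as size factors, the stricter filter, independent filtering off, the replicate block or reads outside genes as a covariate, and 0 to 1 when an animal was left out. Of the other 68 pathway genes 0 passed in every fit but the one without Abi3 WT replicate 2, where 1 did, Fads1 (log2 fold change -0.28, DESeq2 adjusted p = 0.0466), so the range was 0 to 1. The log2 fold change of Srebf2 ranged from -0.16 to 0.074 without an animal, turning to 0.029 without Abi3 WT replicate 3, 0.074 without Abi3 KO replicate 1 and 0.042 without Abi3 KO replicate 5. Over all genes, 95 passed as reported (60 higher, 35 lower), 37 with edgeR (17 higher, 20 lower), 20 with limma (11 higher, 9 lower), 53 with total reads as size factors (14 higher, 39 lower), 57 with independent filtering off (29 higher, 28 lower), 3 with reads outside genes as a covariate, and 174 with oligodendrocyte markers as a covariate. Leaving out an animal gave 46 to 120, with 61 without Abi3 WT replicate 1, 48 without Abi3 WT replicate 6, 61 without Abi3 KO replicate 1, 46 without Abi3 KO replicate 2 and 47 without Abi3 KO replicate 5. The cause of these changes was not tested. The oligodendrocyte covariate and the removal of animals from the pair correlations and the library measures were chosen after seeing the data. Pairs of the 7 genes past the threshold were 1 as reported, 0 with TMM scaling, a pseudocount of 10 or no centring, and 0 to 2 without an animal. The difference in reads in genes ranged from -937340 to -498519 and that in reads outside genes from -14.0 to -10.8 per 100 without an animal.

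The replicate numbers are shared by both genotypes for 5 pairs, whose deviations correlated at -0.02 to 0.12. Their mean was 0.0399, against -0.00798 for other pairs. Whether the numbers pair the animals was not tested. With the replicate block, 33 genes passed (20 higher, 13 lower), 0 of the 7 among them, and the log2 fold change of Hmgcs1 was 0.28 (DESeq2 adjusted p = 0.133). This fit left out Abi3 WT replicate 6. Without that animal and with no block, Hmgcs1 did not pass either (DESeq2 adjusted p = 0.161), so the 2 changes cannot be told apart. At these depths, genes under about 70.4 mean normalized counts received no adjusted p. This limits what can be said of genes such as Idi1, Mvk, Fdps, Thrsp, Pdss2, Lcat, Tpst2 and Ints4.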
